A study of Homo sapiens with 4 samples.

Results

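XIAP, BCL2L1, MAPKAP1 and MYB encode mRNAs that earlier work described as repressed at the level of translation by PDCD4. They were followed here in crosslink data of PDCD4. The 4 genes were found by their exact symbol in the gene label of each crosslink site, among 14416 labelled genes. They held 86 of the 158922 sites listed for PDCD4 and 79 of the 111361 sites listed for the IgG control. All sites were used, whatever their score.

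In iCLIP, UV light links RNA to the proteins that touch it, an antibody pulls down one protein with its RNA, and reverse transcription stops beside the linked nucleotide, so that each cDNA end marks a contact at 1-nt resolution. The cells were MCF10A, an established non-transformed breast epithelial line, with wild-type (WT) genotype in both groups. Antibody to PDCD4 was used for 2 replicates and isotype control IgG for the other 2, and no other treatment is given in the labels for either group. The authors pooled the replicates of each group into 1 list, so there was 1 value per immunoprecipitation, no spread between replicates and no test, and every interval below is an exact 95% interval that covers counting error only. Intervals on cDNAs treat each cDNA as independent. Most member sites held more than 1 cDNA, so these intervals may be too narrow.

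PDCD4, a tumour suppressor, is best known for sequestering the helicase eIF4A, so that mRNAs with strongly folded leaders are translated less. XIAP and BCL2L1, whose 5′UTRs have been described as holding internal ribosome entry sites, are known as mRNAs that PDCD4 represses through that region. MAPKAP1 (SIN1, a subunit of mTORC2) is known as a target whose 5′UTR was described as structured, while PDCD4 was described as acting on MYB through its coding region. The products serve survival and growth: XIAP inhibits caspases, BCL2L1 gives the anti-apoptotic protein Bcl-xL, SIN1 lets mTORC2 phosphorylate AKT, and MYB is a transcription factor of progenitor cells.

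The sites that bear on these descriptions are shown as 29 nt of the reference genome (GRCh38), in the direction of transcription, with the crosslinked nucleotide in capitals. The first set holds every 5′UTR site listed for any of the 4 mRNAs, all of them in BCL2L1 on the minus strand of chromosome 20. The windows lie at chr20:31722229-31722257, chr20:31722494-31722522 and chr20:31722732-31722760.
BCL2L1 5′UTR, PDCD4, 25 nt before the first coding base: ttggacaatggactGgttgagcccatccc
BCL2L1 5′UTR of another transcript, PDCD4: gctggtgggagattCagagtccactggtg
BCL2L1 5′UTR, IgG, 259 nt before the first coding base: cggccggagctggtTtttttgccagccac

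The second set holds coding sites. It gives the sites nearest to the start codon of BCL2L1 (chr20:31722191-31722219) and XIAP (chrX:123885664-123885692, plus strand), the BCL2L1 coding site with the highest PDCD4 score (chr20:31721775-31721803), and the only XIAP coding site of the IgG list (chrX:123900529-123900557). It also gives 1 PDCD4 site and the IgG site of MAPKAP1 exon 6 (chr9:125559720-125559748 and chr9:125559734-125559762, minus strand), whose windows overlap.
BCL2L1 codon 5, PDCD4: aatgtctcagagcaAccgggagctggtgg
BCL2L1 codon 144, PDCD4: gcattgtggcctttTtctccttcggcggg
XIAP codon 6, PDCD4: tgacttttaacagtTttgaaggatctaaa
XIAP codon 384, IgG: ctatacgaatggggTtcagtttcaaggac
MAPKAP1 codon 249, PDCD4: ttccccccgctggaTtccaatgagcccat
MAPKAP1 codon 245, IgG: aggtggacaccgatTtccccccgctggat

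The last window is the only site of MYB, in the 3′UTR at chr6:135218928-135218956 on the plus strand.
MYB 3′UTR, PDCD4: tagcctgactgtttTataatttgggagtt

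The PDCD4 list summed to 409308 cDNAs and the IgG list to 276139, and gene values are therefore given per 10000 cDNAs of a list. The score of a site is its number of cDNAs. The markers of basal breast epithelium fixed for the check of the cell line were listed for 8 of 8 genes, with 1913 PDCD4 and 1024 IgG cDNAs, and those of luminal epithelium for 4 of 4, with 144 and 79. None of the 8 markers of blood cells, fibroblasts and endothelium was listed in either file. The authors' methods describe taking positions seen with IgG out of the PDCD4 data ahead of peak calling, which would make the lists dependent at a given position. The files still share 721 positions, none of them in the 4 mRNAs, and how the step was carried out is not given in the sources used here.

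XIAP, BCL2L1 and MAPKAP1 had sites in both lists, and MYB had almost none. No member site had a score greater than 5, the threshold the authors' methods set for peaks, in either list. A site above this threshold was found in 8.37% of the genes listed for PDCD4 and 5.09% of those listed for IgG. The share depended on how many cDNAs a gene had. Of the genes with 0.5 to 2 times the PDCD4 cDNAs of BCL2L1, 28.4% had one, against 17.1% for the range around MAPKAP1 and 7.56% for the range around XIAP. The 86 PDCD4 sites comprised 6 with 1 cDNA, 43 with 2, 30 with 3, 6 with 4 and 1 with 5. The 79 IgG sites comprised 10, 49, 12, 6 and 2 at the same scores.

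BCL2L1 carried the most cDNAs of the 4 in the PDCD4 list. Its 49 PDCD4 sites summed to 117 cDNAs (mean score 2.39) and its 37 IgG sites to 78 (mean score 2.11), which is 2.86 and 2.82 per 10000. The log2 ratio of PDCD4 over IgG was 0.02 (interval -0.41 to 0.45). The share of BCL2L1 in the 2 lists did not differ beyond counting error.

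MAPKAP1 was the only member whose share differed by more than counting error, and it was lower in the PDCD4 list. Its 26 PDCD4 sites summed to 66 cDNAs (mean score 2.54) and its 34 IgG sites to 83 (mean score 2.44), which is 1.61 and 3.01 per 10000. The log2 ratio was -0.90 (-1.39 to -0.41), and 19.2% of the genes with at least 20 cDNAs had a lower one. By the number of listed sites it was -0.90 with a wider interval (-1.70 to -0.12). Of the 7305 such genes, 1739 had an interval below 0 and 1471 an interval above 0. An interval that leaves out 0 was therefore common and does not set MAPKAP1 apart.

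The 10 PDCD4 sites of XIAP summed to 26 cDNAs (mean score 2.6) and its 8 IgG sites to 17 (mean score 2.13), or 0.635 and 0.616 per 10000. Its log2 ratio was 0.05 (-0.89 to 1.02). In XIAP, 4 PDCD4 sites and 1 IgG site were followed by 30 nt that recur elsewhere in the genome. Without them the log2 ratio was -0.57 (-1.70 to 0.57). It was also below 0 with scores of at least 2 (-0.06) and by the number of sites (-0.19), and every one of these intervals held 0, so no direction can be read for XIAP.

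MYB had 1 PDCD4 site with 2 cDNAs and no IgG site. With 2 against 0 cDNAs, the lower bound of the log2 ratio was -2.98 and there was no upper bound. Neither a direction nor a level can be read for MYB at this depth.

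None of the 3 members with at least 20 cDNAs over both lists was past 2-fold in either direction. Of the 7305 genes of that size, 17.7% were at least 2-fold higher and 16.4% at least 2-fold lower in the PDCD4 list, with a median log2 ratio of -0.08 and quartiles of -0.71 and 0.66. XIAP and BCL2L1 lay near that median, with 54.5% and 53.2% of the genes below them.

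**Figure D1:**
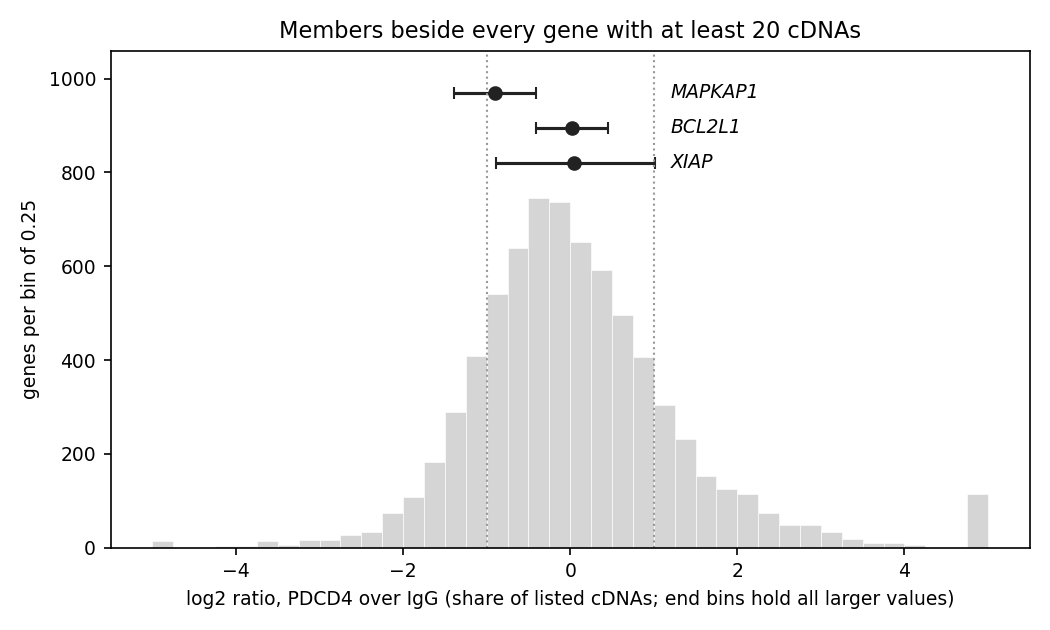
Log2 ratio of PDCD4 over IgG (x axis, share of listed cDNAs) for the 7305 genes with at least 20 cDNAs over both lists (bars, y axis in genes per bin, with larger ratios collected in the end bins) and for XIAP, BCL2L1 and MAPKAP1 (points with 95% counting intervals, at arbitrary height). The dotted lines mark 2-fold: XIAP and BCL2L1 sit at 0.05 and 0.02, MAPKAP1 at -0.90, and only the interval of MAPKAP1 leaves out 0.

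The sites were next assigned to the regions of each gene. Over the 4 members, coding sequence held 14 PDCD4 sites with 35 cDNAs, the 3′UTR 23 sites with 51, the 5′UTR 2 sites with 4, and introns 47 sites with 121. In the IgG list the same regions held 7 sites with 20 cDNAs, 10 with 23, 1 with 2 and 61 with 133. Coding sequence thus took 16.6% (11.8% to 22.3%) of the members' PDCD4 cDNAs and 11.2% (7.0% to 16.8%) of their IgG cDNAs. Over all protein-coding genes the coding share was 23.1% for PDCD4 and 10.7% for IgG. The members' interval for PDCD4 lay below the value of all protein-coding genes, while that for IgG held it. Of the 211 PDCD4 cDNAs pooled here, BCL2L1 gave 117 and MAPKAP1 66. The interval holds no spread between genes, so the pooled share cannot be read as a trait of the 4 mRNAs as a class.

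**Figure D2:**
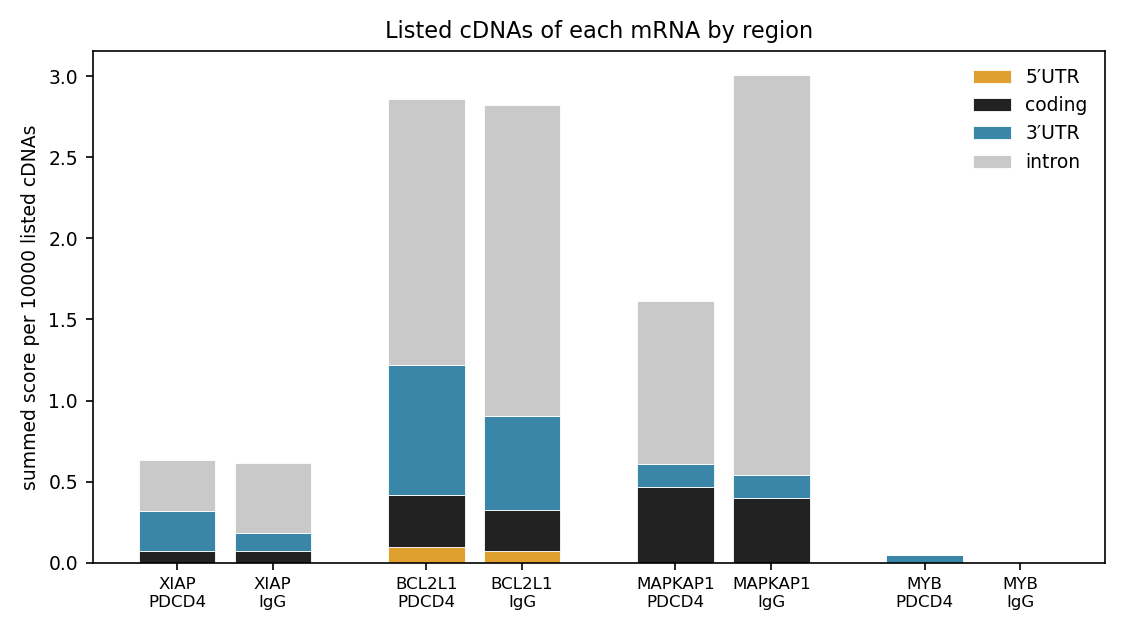
Summed score per 10000 listed cDNAs (y axis) of each mRNA in the PDCD4 and IgG lists (x axis), stacked by region of the gene. BCL2L1 and XIAP reach nearly the same height in both lists, MAPKAP1 is taller for IgG (3.01 against 1.61) through its intronic part, and MYB has only a 3′UTR part of 0.0489 for PDCD4.

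BCL2L1 was the only member with 5′UTR sites in either list. Among the protein-coding genes of the PDCD4 list, 19.5% had a 5′UTR site, against 1 of the 4 members. The site 25 nt before the first coding base had 2 cDNAs, and its neighbour at codon 5, 13 nt past the first coding base, also had 2. The other PDCD4 site, again with 2 cDNAs, is 5′UTR in another annotated transcript and intronic in the canonical one. The IgG site had 2 cDNAs as well and lay farther upstream, in exon 1. The 5′UTR counts of BCL2L1 were 4 cDNAs for PDCD4 and 2 for IgG, too few to be told apart. No 5′UTR site was listed for XIAP, MAPKAP1 or MYB, although their canonical 5′UTRs measure 273, 307 and 206 nt.

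Coding sites were listed for 3 of the 4 members in the PDCD4 list, beside 61.8% of its protein-coding genes. In BCL2L1, PDCD4 sites lay at codon 5, at codon 87 (on neighbouring nucleotides, 2 cDNAs each), at codon 144 (4 cDNAs) and at codon 192 (3 cDNAs). IgG sites lay at codon 30 with 2 cDNAs and at codon 230 with 5, and this IgG site near the stop codon had more cDNAs than any PDCD4 coding site of the gene. Together BCL2L1 had 13 PDCD4 and 7 IgG coding cDNAs, a log2 ratio of 0.33 (-1.11 to 1.89). Over all genes the log2 ratio of coding cDNAs was 1.11, which lies inside that interval.

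MAPKAP1 had 8 PDCD4 coding sites with 19 cDNAs and 4 IgG coding sites with 11, a log2 ratio of 0.22 (-0.92 to 1.44). Its PDCD4 coding sites were grouped: 5 of the 8, with 12 cDNAs, lay in exon 6, which is 177 nt long, at codons 229 to 255. Of these 5, 4 lay at codons 249 to 255, each within 2 nt of another, so they are not separate places. The only IgG site of that exon, with 3 cDNAs, lay 14 nt from a PDCD4 site. The other PDCD4 coding sites were in exon 4 (2 cDNAs), exon 9 (3 cDNAs) and exon 12 (2 cDNAs). The IgG coding site with the most cDNAs, 4, lay in exon 2, where no PDCD4 site was listed.

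XIAP had 1 coding site in each list. The PDCD4 site, with 3 cDNAs, lay at codon 6, 15 nt past the first coding base in exon 2, and the IgG site, with 2 cDNAs, at codon 384 in exon 6. MYB had no coding site in either list.

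Per kb of annotated coding sequence, the PDCD4 list held 13.5 cDNAs for BCL2L1 (7.19 to 23.1), 10.5 for MAPKAP1 (6.35 to 16.5) and 2.01 for XIAP (0.414 to 5.87), and none was listed for MYB. The intervals of BCL2L1 and MAPKAP1 overlap, and that of XIAP lies below both. The XIAP value rests on 1 site with 3 cDNAs, and the interval treats these cDNAs as independent. The IgG list gave the same order, with 7.27 (2.92 to 15), 6.11 (3.05 to 10.9) and 1.34 (0.162 to 4.84), and there the interval of XIAP overlapped both others. RNA abundance was not analysed here, so these densities are not corrected for it.

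The PDCD4 sites at the start of the coding sequence of XIAP and BCL2L1 were seen only after the values were known. In the canonical transcripts, 3 of the 15 coding and 5′UTR sites of the members in the PDCD4 list lay within 30 nt of the first coding base, 2 of them in BCL2L1 and 1 in XIAP. Of all such PDCD4 sites, 3.14% of 34833 lay that close. In the IgG list it was 0 of 8 member sites and 3.18% of 11308. The 3 sites rest on 7 cDNAs in all, and nothing about the start codon of these mRNAs as a class can be read from them.

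**Figure D3:**
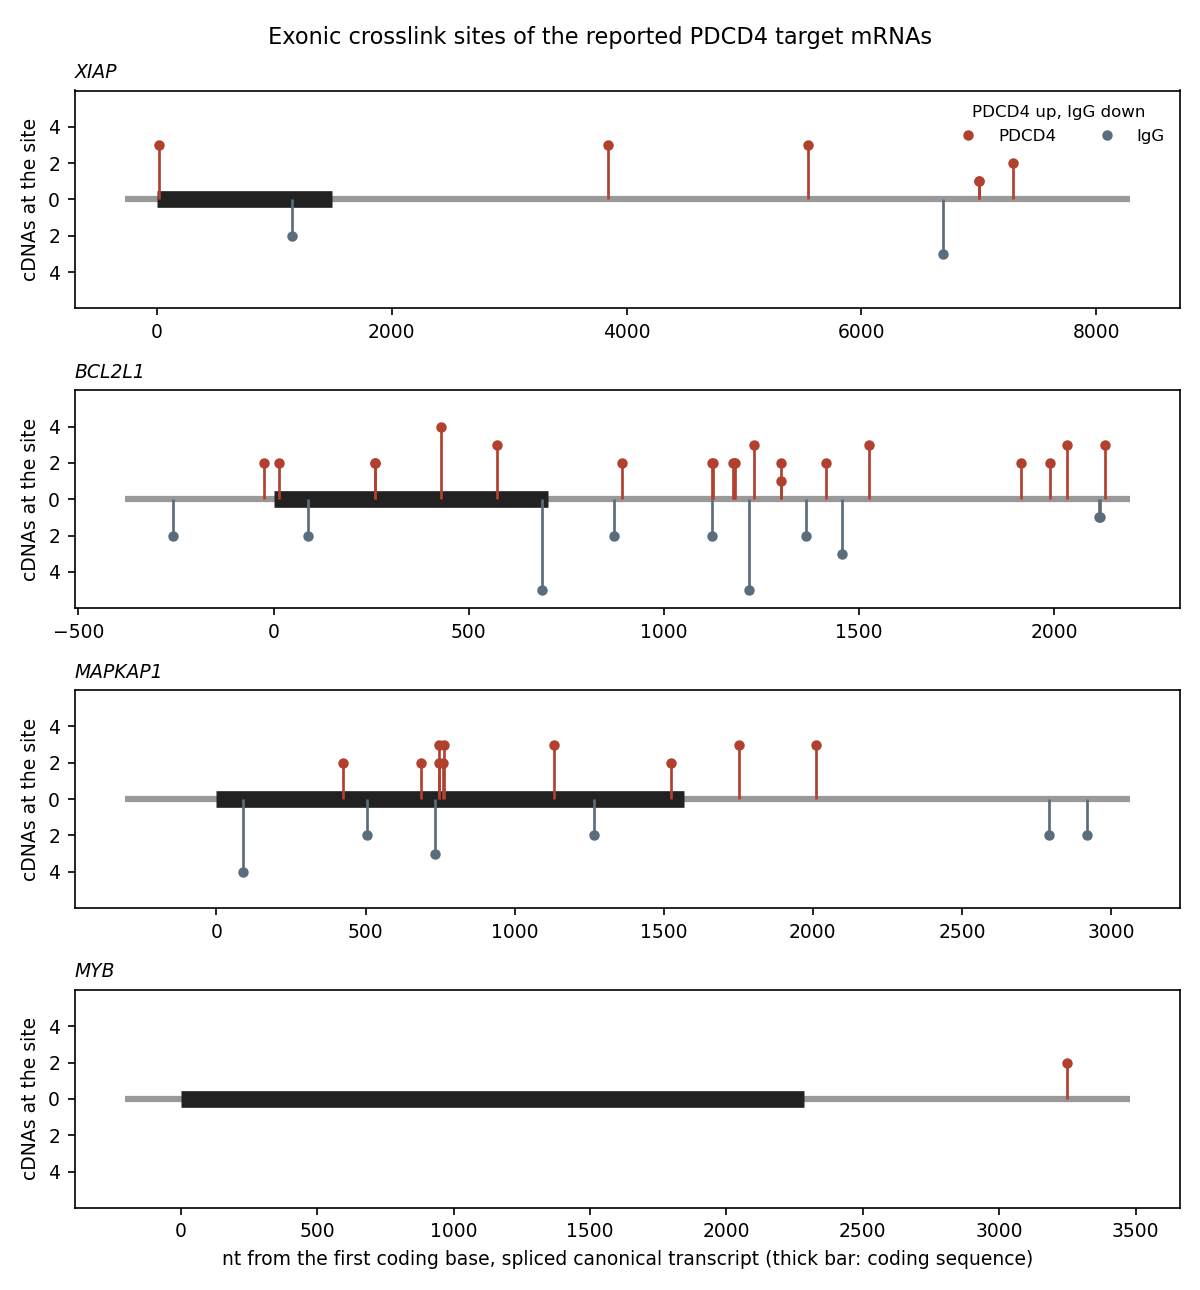
Exonic sites of each mRNA along its spliced canonical transcript (x axis, nt from the first coding base, thick bar for the coding sequence), with the number of cDNAs at each site on the y axis, PDCD4 upward and IgG downward. The PDCD4 site of BCL2L1 that is intronic in the canonical transcript is not drawn. BCL2L1 has sites of both lists along its length, MAPKAP1 has 4 PDCD4 sites between codons 249 and 255, XIAP has 1 PDCD4 site beside its start codon, and MYB has 1 site in its 3′UTR.

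In the 3′UTR, BCL2L1 had 33 PDCD4 cDNAs over 15 sites and 16 IgG cDNAs over 7, or 20.4 (14.1 to 28.7) and 9.91 (5.66 to 16.1) cDNAs per kb of annotated 3′UTR. Scaled to the size of the lists, the log2 ratio was 0.48 (-0.43 to 1.44). At 3 places of this 3′UTR, sites of both lists lay within 14 nt of each other. In XIAP the 3′UTR held 10 PDCD4 cDNAs over 5 sites and 3 IgG cDNAs at 1 site. Of the 10 cDNAs, 5 were at sites in repeated sequence: the 30 nt after one of them recur 2002 times in the genome and those after the other 74 times. The 3′UTR of MAPKAP1 held 6 PDCD4 and 4 IgG cDNAs, over 2 sites each. The single MYB site lay 962 nt past the last coding base.

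Introns held most member cDNAs, and they set the ratio of MAPKAP1. Its introns had 41 PDCD4 and 68 IgG cDNAs, a log2 ratio of -1.30 (-1.89 to -0.72), and its exons had 25 and 15, a ratio of 0.17 (-0.81 to 1.2). Over all protein-coding genes, the log2 ratio was -0.45 for intronic and 0.60 for exonic cDNAs. The intronic value of MAPKAP1 was thus below that of all genes by more than its counting error, while the interval of its exonic value held that of all genes. The value of all genes is pooled, and the spread of intronic ratios between genes is not given here. The low intronic value therefore cannot be read as particular to MAPKAP1. A single intron held 25 of the 68 intronic IgG cDNAs of the gene. Intron 4, 71923 nt long, held 1 PDCD4 site with 3 cDNAs and 11 IgG sites with 25. Outside intron 4, the exons and the other introns of MAPKAP1 together had 63 PDCD4 and 58 IgG cDNAs. Their log2 ratio was -0.45 (-0.99 to 0.09), to be set beside -0.90 for all sites of the gene. It is not comparable with the intronic value of all genes, and no ratio was computed for the other introns alone. Intron 4 was singled out after its values were seen. In the other direction, intron 7 held 4 PDCD4 sites with 9 cDNAs and 1 IgG site with 2.

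The intronic sites of BCL2L1 all lay in intron 2, which is 55568 nt long, with 27 sites in each list and 67 PDCD4 against 53 IgG cDNAs (log2 ratio -0.23, -0.77 to 0.32). They included the member site with the highest PDCD4 score, 5 cDNAs. In XIAP, introns held 13 PDCD4 cDNAs over 4 sites and 12 IgG cDNAs over 6. No PDCD4 or IgG site of the members in an intron lay within 100 nt of an exon edge.

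The exonic share was higher in the PDCD4 list for each of the 3 members in both lists, as it was for 66.8% of the protein-coding genes with at least 20 cDNAs. It was 50% (29.9% to 70.1%) against 29.4% (10.3% to 56.0%) in XIAP. In BCL2L1 it was 42.7% (33.6% to 52.2%) against 32.1% (21.9% to 43.6%). In MAPKAP1 it was 37.9% (26.2% to 50.7%) against 18.1% (10.5% to 28.0%). The intervals of each pair overlapped. Over all protein-coding genes 51% of PDCD4 cDNAs and 33.5% of IgG cDNAs were exonic. The intervals of MAPKAP1 lay below these values in both lists, and those of XIAP and BCL2L1 held them. For MAPKAP1 this depended on the setting. By the number of listed sites, its intervals were 20.2% to 59.4% for PDCD4 and 6.8% to 34.5% for IgG, and held the same values. Without sites in repeated sequence, its PDCD4 interval was 29.1% to 55.1%, which held 51%. These intervals hold no spread between genes. Among genes with at least 20 cDNAs in the PDCD4 list, the quartiles of the exonic share were 28.6% and 72.7%. Among genes with at least 20 cDNAs in the IgG list they were 13.3% and 53.3%. MAPKAP1, at 37.9% and 18.1%, lay between the quartiles in both lists, so its exonic share does not set it apart.

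**Figure D4:**
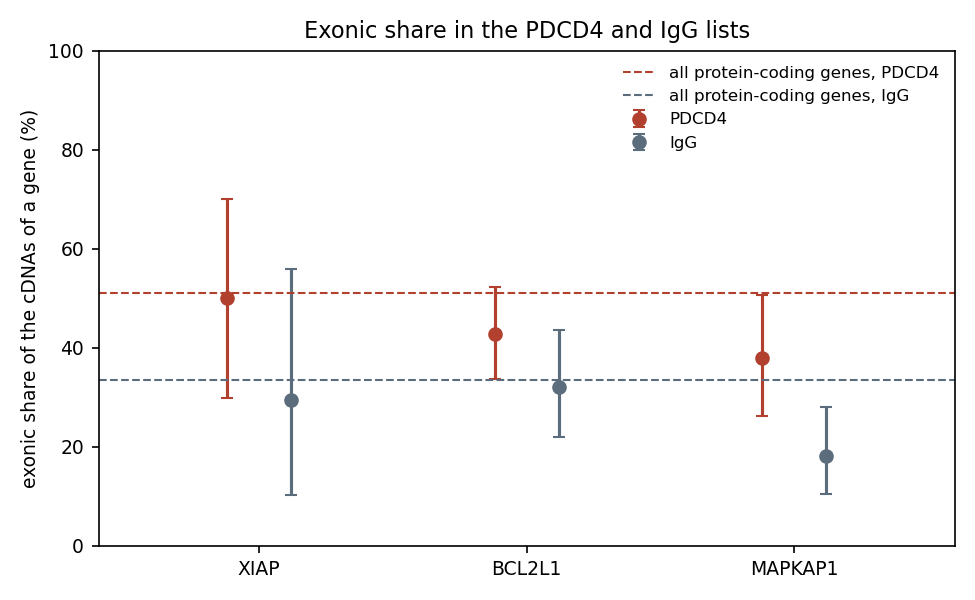
Percentage of the cDNAs of XIAP, BCL2L1 and MAPKAP1 that lay at exonic sites (y axis) in the PDCD4 and IgG lists, with exact 95% binomial intervals that cover counting error. The dashed lines are the shares over all protein-coding genes, 51% for PDCD4 and 33.5% for IgG. The PDCD4 point is the higher of each pair, and the intervals of each pair overlap.

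UV light links uridines most readily, and the base at the crosslinked nucleotide was read from the genome. It was thymidine at 42 of the 86 PDCD4 sites of the members, 48.8% (37.9% to 59.9%), and at 46.7% of all PDCD4 sites. It was thymidine at 46 of the 79 IgG sites of the members, 58.2% (46.6% to 69.2%), and at 51.6% of all IgG sites. Both intervals held the value of the whole list. They treat sites as independent, although 19 PDCD4 and 13 IgG sites of the members lay within 20 nt of another site of the same list. In BCL2L1, 10 of the 37 IgG sites and 4 of the 49 PDCD4 sites were followed by 30 nt that recur elsewhere in the genome.

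Each member was also set beside other genes of its pathway. In the 4 lists of such genes, members included, 36 genes had at least 20 cDNAs, of which 6 were at least 2-fold higher and 4 at least 2-fold lower in the PDCD4 list. Over all genes of that size the shares were the 17.7% and 16.4% given above.

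Of the inhibitor of apoptosis (IAP) proteins with their antagonists and caspases, 12 of 16 genes were listed and 8 had at least 20 cDNAs, with a median log2 ratio of 0.09. APAF1, the scaffold of the apoptosome, had 26 PDCD4 and 3 IgG cDNAs, a log2 ratio of 2.55 (0.84 to 4.92). BIRC2, a paralogue of XIAP that ubiquitinates signalling proteins, had 13 and 19, a log2 ratio of -1.12 (-2.25 to -0.02). XIAP lay between them.

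Of the BCL2 family, 17 of 20 genes were listed and 8 had at least 20 cDNAs, with a median of -0.53. BCL2L1 had more cDNAs than any other gene of this list in both immunoprecipitations. BCL2 and MCL1, which also protect against apoptosis, were lower in the PDCD4 list. BCL2 had 3 PDCD4 and 25 IgG cDNAs, a log2 ratio of -3.63 (-6.0 to -1.91). MCL1 had 6 and 17, a log2 ratio of -2.07 (-3.70 to -0.66), and all of them were exonic.

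Of the mTOR complexes and the kinases downstream of them, 17 of 18 genes were listed and 14 had at least 20 cDNAs, with a median of -0.43. TTI1, which helps mTOR to fold and assemble, had 29 PDCD4 and 54 IgG cDNAs, a log2 ratio of -1.46 (-2.17 to -0.79). RPS6KB2, an S6 kinase, had 32 and 7, a log2 ratio of 1.62 (0.42 to 3.05). The mTORC2 partner of SIN1, RICTOR, had 45 and 39, a log2 ratio of -0.36 (-1.01 to 0.30), and the substrate AKT1 had 317 and 112, a log2 ratio of 0.93 (0.62 to 1.26). Neither was past 2-fold, and both are named for their place beside SIN1, outside the rule for named genes and after their values were seen.

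Of the MYB family and its coactivators, 9 of 9 genes were listed and 6 had at least 20 cDNAs, with a median of 0.83. MYBBP1A, a nucleolar MYB-binding protein, had 89 PDCD4 and 17 IgG cDNAs, a log2 ratio of 1.82 (1.06 to 2.66). MYBL2, the cell-cycle member of the family, had 69 and 20, a log2 ratio of 1.22 (0.48 to 2.02). TRIM28, a transcriptional corepressor, had 66 and 19, a log2 ratio of 1.23 (0.47 to 2.05). MYB itself, with 2 cDNAs, was the gene of this list with the fewest.

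**Figure D5:**
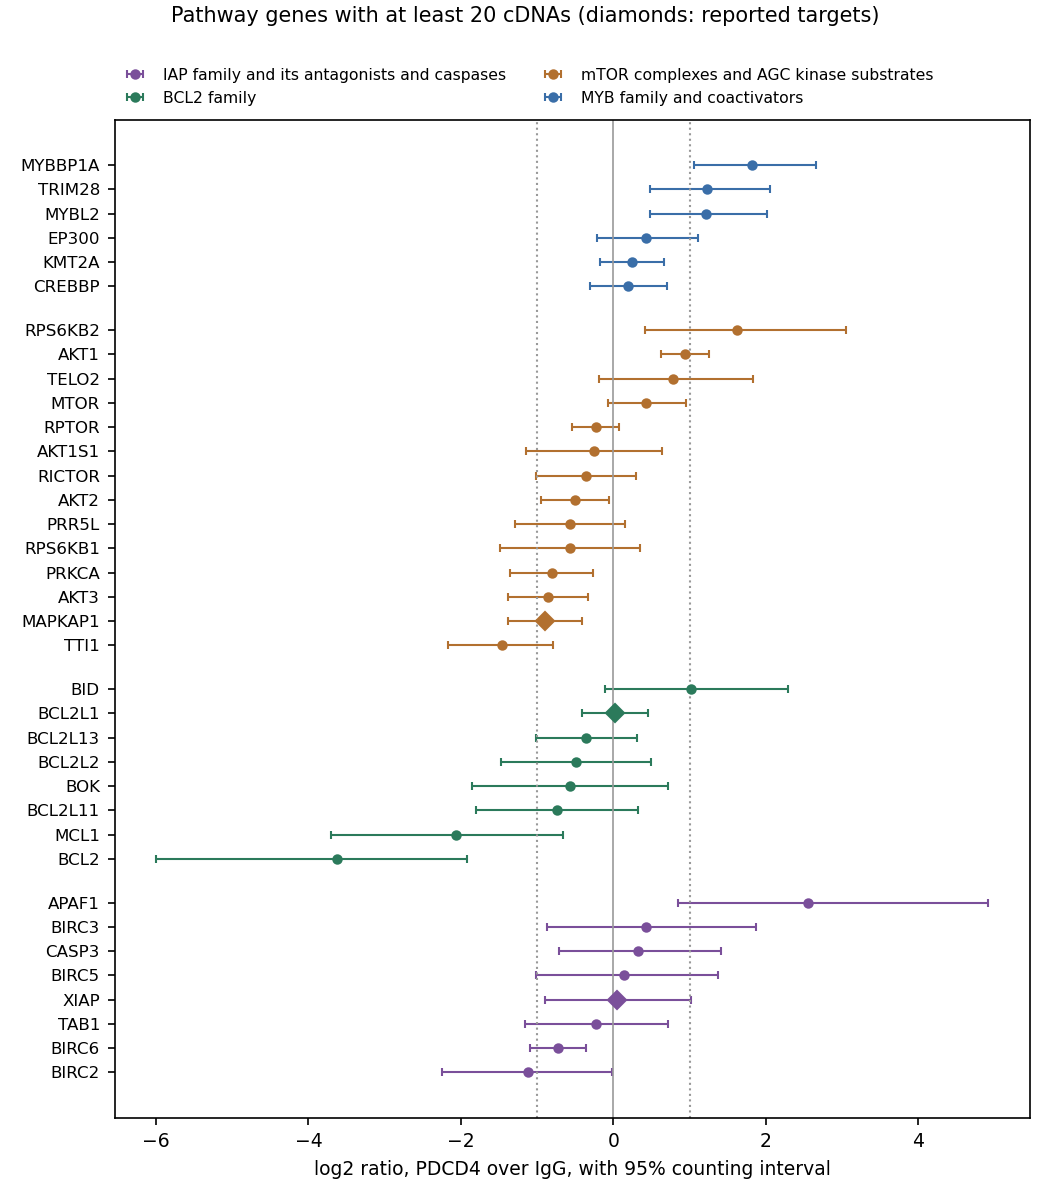
Log2 ratio of PDCD4 over IgG with 95% counting intervals (x axis) for the 36 genes of the pathway lists with at least 20 cDNAs (y axis), coloured by list, with diamonds for XIAP, BCL2L1 and MAPKAP1 and dotted lines at 2-fold. MYBBP1A, RPS6KB2 and APAF1 lie to the right, and BCL2, MCL1, TTI1 and BIRC2 to the left.

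Among the cell markers, KRT5 (basal keratin) had 352 PDCD4 and 74 IgG cDNAs, a log2 ratio of 1.68 (1.32 to 2.06). ITGB4 (integrin of hemidesmosomes) had 439 and 118, a log2 ratio of 1.33 (1.03 to 1.63). LAMB3 (laminin chain) had 401 and 122, a log2 ratio of 1.15 (0.85 to 1.45), and KRT8 (luminal keratin) had 38 and 6, a log2 ratio of 2.10 (0.84 to 3.63). These 4 were named because they passed 2-fold. The other markers with at least 20 cDNAs did not, and EGFR, the marker with the most cDNAs (595 and 632), had a log2 ratio of -0.65 (-0.82 to -0.49), CDH1 of -0.38 and CDH3 of -0.20. Over the 7 basal markers with at least 20 cDNAs the median log2 ratio was 0.47, with a range of -0.65 to 1.68. EGFR, CDH1 and CDH3 were named after their values were seen.

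The genes most like each member in how their cDNAs were spread over list and region were found by the total variation distance, which is 0 for equal shares and 1 for shares without overlap. They were chosen among protein-coding genes with 0.5 to 2 times as many cDNAs. For XIAP they were ABCC5, SH3PXD2B and VSIR, at distances of 0.0588, 0.0611 and 0.0613 among 4478 genes. PTPN1, MAPKAPK2 and TRA2A were closest to BCL2L1, at 0.0441, 0.0537 and 0.0636 among 1642. FNDC3A, NCAPD2 and SMG6 were closest to MAPKAP1, at 0.0292, 0.0371 and 0.0447 among 2293. MYB, with its single site, had the same pattern as 184 of 1629 genes, so that no gene stands out as its closest.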

How the data were processed

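By their methods, the authors mapped iCLIP reads to GRCh38 (Ensembl release 88), subtracted IgG crosslink sites from the PDCD4 replicates, called peaks with iCount and merged replicates. The deposited score is an unnormalized cDNA count per 1-nt site, in 1 list per immunoprecipitation that pools 2 replicates. The score filter of the methods (greater than 5) is not applied in the lists and was not applied here. The authors' differential binding test was not repeated, since no counts per replicate were used here.

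Sites were assigned by strand to GENCODE release 44 over all transcripts, in the order coding, 3′UTR, 5′UTR, non-coding exon, intron. Of the site labels, 0.489% (PDCD4) and 0.465% (IgG) named a gene that this release lacks or places on another chromosome or strand. Canonical transcripts gave codon and exon numbers. Ratios of summed scores have conditional binomial 95% intervals and shares Clopper-Pearson intervals. Genes with at least 20 cDNAs over both lists were the background. The 30 nt after each member site were searched on both strands of the genome. Named genes were the members, pathway and marker genes past 2-fold whose interval excluded equal shares (at most 5 per list), and the 3 genes most like each member. Members and lists were chosen with earlier results of these data known. The ratio calculation was run on simulated independent counts, which lack the grouping of cDNAs at sites. The region assignment was checked on a made-up gene. Scripts ran in Python 3.11.15 (pysam 0.24.0, scipy 1.17.1, pandas 2.3.3, numpy 2.4.6, matplotlib 3.10.9).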

Additional observations from a re-analysis of the deposited data

How the results depend on the processing

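Of 70 values recomputed under other settings, 63 stayed within the counting interval of the reported value (counts within 1.5 times), and none of the ratios with an interval apart from 0 changed sign. With scores greater than 5, the coding sites of the members in the PDCD4 list fell from 14 to 0 and the 5′UTR sites from 2 to 0, and no ratio could be computed. Counting only the canonical transcript left 1 5′UTR site. Merging sites within 20 nt left 10 of the 14 coding sites. The pathway genes past 2-fold numbered 11 higher and 7 lower among 47 genes with at least 10 cDNAs, and 3 higher and 1 lower among 19 with at least 50, since the minimum sets how many genes enter. The shares of all genes past 2-fold at these minimums are not given here. The counts therefore have no background and say nothing about the pathway genes. Exonic sites against exonic totals gave log2 ratios of 0.21 for XIAP, -0.17 for BCL2L1 and -0.43 (-1.41 to 0.60) for MAPKAP1, whose interval then held 0. Leaving out sites in repeated sequence was chosen after seeing the data. No paired analysis was possible because each list pools its replicates. The depth, 1 to 5 cDNAs per member site, limits every statement on single sites.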
